A study of Mus musculus with 4 samples.

Results

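Lateral wall fibrocytes were looked for among cells and nuclei of the stria vascularis (SV) of adult mice, profiled by droplet RNA-Seq, as barcodes with transcripts of Slc4a11, Otor, Dcn and Lum. A barcode was selected when it held at least 200 genes, at least 4 unique molecular identifiers (UMIs, each counting 1 captured transcript) of these 4 genes together, more of them than of the basal cell genes Cldn11, Tjp1 and Nr2f2, and no more than 1 UMI of the endothelial genes Pecam1, Cdh5 and Cldn5. Malat1, a nuclear RNA, also had to make up at least 1% of the UMIs of a cell or 3% of those of a nucleus. The rule selected 70 of 14387 barcodes. They were 29 of 3330 barcodes of whole cells, with 2, 17 and 10 in captures 1, 2 and 3, and 41 of 11057 barcodes of nuclei. Of the barcodes with at least 200 genes, this was 0.529%, 1.28% and 0.675% in the captures of cells, with exact 95% binomial intervals of 0.0641 to 1.90%, 0.747 to 2.04% and 0.324 to 1.24%, and 0.383% (0.275 to 0.519%) in the capture of nuclei. These intervals cover counting error only.

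The samples were SV tissue of CBA/J mice at postnatal day 30, with no treatment or engineered allele named in the labels. The labels give about 12 mice for each suspension of cells and about 10 for that of nuclei, and the study's methods give other numbers per capture of cells. A capture thus pooled animals and was the replicate. There were 3 captures of cells and 1 of nuclei, and the nuclei therefore had no replicate. The captures of cells held 2811309, 8113494 and 8340882 UMIs in all and that of nuclei 22332501. The SV was dissected away from the spiral ligament, the tissue in which most fibrocytes lie. The selected barcodes held 36761, 117545 and 82769 UMIs in the captures of cells and 109156 UMIs in the nuclei, with medians of 18380.5, 5902, 6800.5 and 2271 UMIs per barcode.

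Fibrocytes of the lateral wall are connective tissue cells of the spiral ligament behind the SV. They take up potassium that has left the hair cells, pass it through gap junctions towards the basal cells of the SV, and secrete a collagen-rich matrix. Cochlin, encoded by Coch, and otospiralin, encoded by Otos, are abundant proteins of this tissue, and loss of the transcription factor Pou3f4 in its mesenchyme causes deafness.

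Slc4a11 encodes a membrane transporter of the SLC4 family, Otor a small secreted protein of the cochlea, and Dcn and Lum the small leucine-rich proteoglycans decorin and lumican, which bind collagen. In whole cells, 22 of 29 selected barcodes held Dcn, 12 held Lum, 3 held Slc4a11 and 2 held Otor. Both Dcn and Lum were held by 5, and the 3 cells with Slc4a11 and the 2 with Otor all held Dcn, and 2 of those with Slc4a11 held Lum. In nuclei, 23 of 41 held Dcn, 21 held Slc4a11, 12 held Lum and 2 held Otor, and Dcn and Lum met in 2 nuclei. Of the 21 nuclei with Slc4a11, 10 also held Dcn and 5 Lum. These counts describe the genes that chose the barcodes, and since a barcode could enter on any of the 4 genes alone, nothing is read from them. For description, each barcode was grouped by whichever of the 4 genes had most UMIs. There were 19 Dcn-led, 7 Lum-led and 1 Slc4a11-led cells with 2 ties, and 19 Slc4a11-led, 13 Dcn-led, 7 Lum-led and 1 Otor-led nuclei with 1 tie. The decision to keep Dcn and Lum apart was taken after their values had been seen, and no test was made between these groups.

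The groups differed in genes that the rule had not used, and Coch and Otos, from a list of 8 fibrocyte markers, lay mainly in the Slc4a11-led barcodes and in 1 tie of each preparation. In counts scaled to 1000000 UMIs (CPM), Coch stood at 2674 CPM in the Slc4a11-led nuclei against 30.8 CPM in the Dcn-led and 170 CPM in the Lum-led nuclei. Otos stood at 3489 CPM, 0 UMIs and 170 CPM in the same order. Other genes of the list went differently. Pou3f4 was found in 14 of 19 Dcn-led cells and had 0 UMIs in the Slc4a11-led cell, and Gjb6 had the most UMIs of the list in the Lum-led barcodes. The whole list summed to 60350, 1083 and 2058 CPM in the Slc4a11-led, Dcn-led and Lum-led cells and to 8336, 1139 and 6849 CPM in the nuclei. The list thus did not give 1 answer for the name of fibrocyte, and the barcodes are described by their leading genes. The plot of UMIs per barcode shows the division in both preparations.

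**Figure D1:**
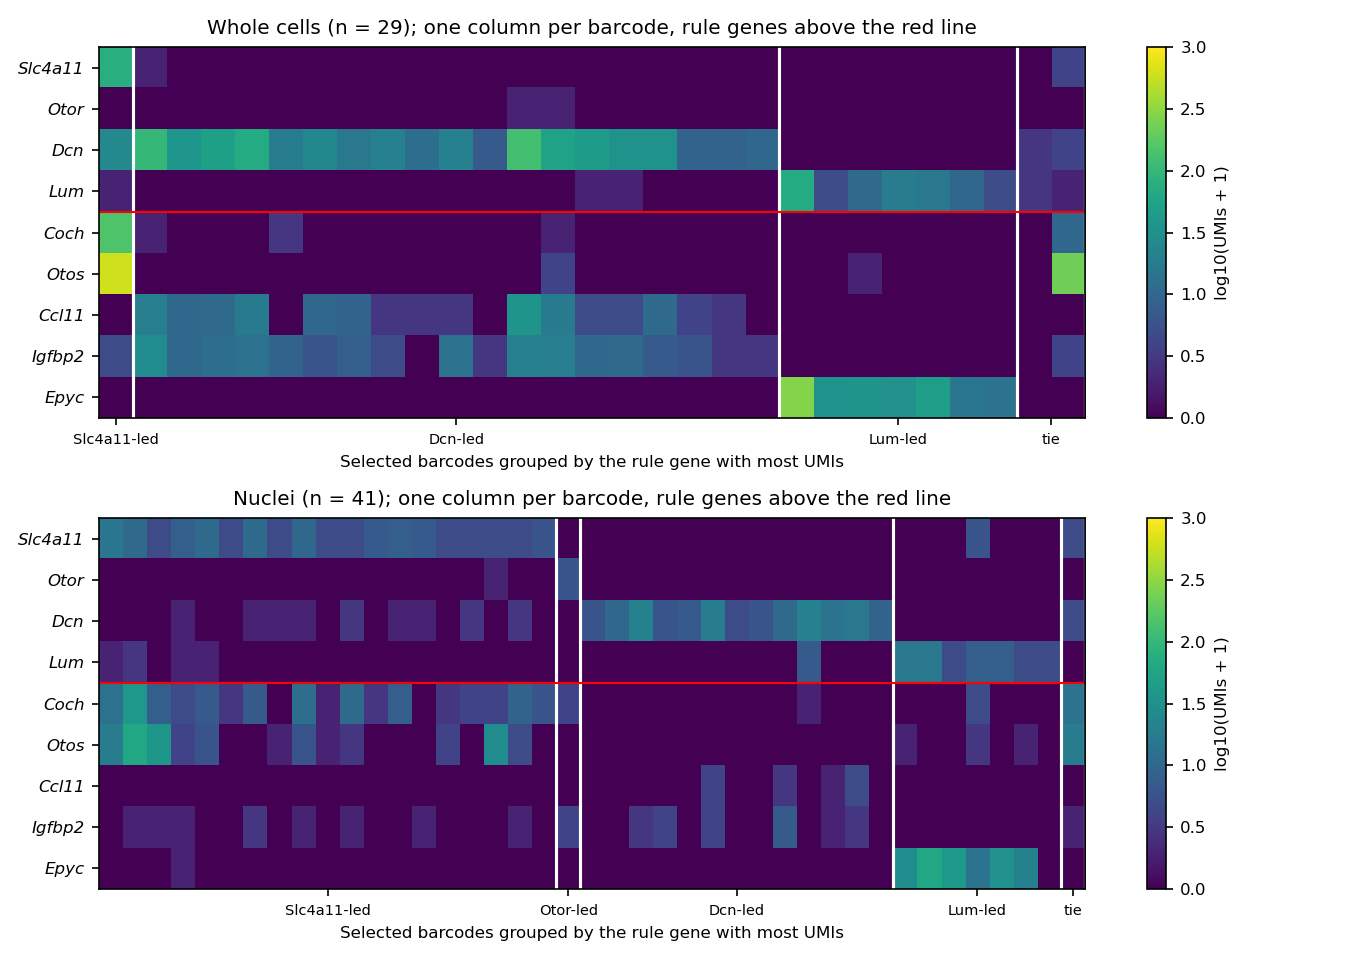
UMIs, as log10(UMIs + 1), of the 4 genes of the rule and of 5 other genes (rows) in each of the 29 selected cells (top) and 41 selected nuclei (bottom), with 1 barcode per column, grouped by the rule gene with most UMIs. Coch and Otos lie mainly with Slc4a11, Ccl11 and most of Igfbp2 with Dcn, and Epyc with Lum.

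Slc4a11-led barcodes were almost all nuclei. The only such cell, in capture 2, held 13836 UMIs, of which 74 were Slc4a11, 25 Dcn, 1 Lum, 147 Coch and 608 Otos. A second cell of capture 2, a tie with 3 UMIs each of Slc4a11 and Dcn, held 9 of Coch and 223 of Otos among 5045. Captures 1 and 3 had no Slc4a11-led cell, and their selected cells held 0 and 1 UMIs of Coch and 0 and 3 UMIs of Otos.

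Among the 19 Slc4a11-led nuclei, Slc4a11 ranged from 4 to 14 UMIs and Coch was found in 17, with 128 UMIs in all and an interval of 2231 to 3180 CPM (exact 95% Poisson). For comparison, Coch had a UMI in 2.23% of 3364 marginal nuclei, with a median depth of 1499 UMIs against 2090 in the Slc4a11-led nuclei. After thinning to 500 UMIs, the share was 68.4% in the Slc4a11-led and 0.595% in the marginal nuclei. Otos was found in 12 of the 19, with 0 UMIs in 7 and 60 in the highest. The spread of Otos among these nuclei was therefore wide, and 3 nuclei held 60, 38 and 28 of its 167 UMIs. The nucleus with 38 had a high doublet score, and that with 60 held 4 UMIs of the marginal marker genes. Otos also had a UMI in 6.78% of marginal and 12.6% of basal nuclei.

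Other genes of ion and bicarbonate transport were also found in these nuclei. Slc4a10, a sodium-coupled bicarbonate transporter, had 91 UMIs in 14 Slc4a11-led nuclei, or 1901 CPM, against 431 CPM in the Dcn-led and 170 CPM in the Lum-led nuclei, and it had 11 UMIs in the Slc4a11-led cell. Car3, which encodes carbonic anhydrase III, had 27 UMIs in the Slc4a11-led cell and 45 in 6 Slc4a11-led nuclei, 2 of which held 22 and 13. The nucleus with 22 had a high doublet score and 6 UMIs of the intermediate marker genes. That with 13 had 4 UMIs of the marginal marker genes. Car3 was spread over other groups too, at 940 CPM in the Slc4a11-led, 766 CPM in the Lum-led and 246 CPM in the Dcn-led nuclei. It also had 23 UMIs in 7 Dcn-led cells. Ahcyl2, a regulator of bicarbonate transporters, was found in 19 of 19 Slc4a11-led nuclei at 3301 CPM, against 277 CPM in the Dcn-led and 85.1 CPM in the Lum-led nuclei. The genes that most separated the Slc4a11-led nuclei from the other selected nuclei were Sorcs3, Col25a1, Otos, Ahcyl2, Coch and Abhd12, in this order of CPM ratio. Their counts were small, with 37 UMIs of Sorcs3 in 11 nuclei and 35 UMIs of Col25a1, a membrane collagen gene, in 10.

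Among the transcription factors known from fibrocytes, Ebf1 was present in 19 of 19 Slc4a11-led nuclei at 2758 CPM, and Tbx18, required for the otic mesenchyme, in 6 of them at 188 CPM. Ebf1 stood at 1802 CPM and Tbx18 at 258 CPM in the basal nuclei, so that neither was particular to the selected barcodes by level. Pou3f4 had 2 UMIs in the Slc4a11-led nuclei and 0 in the Slc4a11-led cell. Aqp1, a water channel of some fibrocytes, had 0 UMIs in both. The connexin genes Gjb2 and Gjb6, which build the gap junctions of the lateral wall, stood at 606 and 397 CPM in the Slc4a11-led nuclei and at 2096 and 1446 CPM in the Slc4a11-led cell. Atp1b1, a sodium pump subunit gene, and Slc12a2, the sodium-potassium-chloride cotransporter, were also high in that cell. It held 3614 CPM of Atp1b1 and 2024 CPM of Slc12a2, whereas the 19 Dcn-led cells held 195 and 72.2 CPM. In nuclei, Slc12a2 stood at 1337 CPM in the Slc4a11-led, 800 CPM in the Dcn-led and 681 CPM in the Lum-led group, beside 4827 CPM in marginal nuclei.

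Dcn-led cells came from 2 captures, with 11 in capture 2 and 8 in capture 3, and several of the genes that marked them had like levels in both. Ptn, the gene of the growth factor pleiotrophin, was found in 19 of 19, with 10360 CPM in capture 2 and 9173 CPM in capture 3. Ifitm1, an interferon-induced membrane protein gene, stood at 2043 and 2146 CPM. Igfbp2, a binding protein of insulin-like growth factors, stood at 1390 and 1044 CPM and was found in 18 of 19 cells. Ccl11, the gene of the chemokine eotaxin, stood at 1078 and 1088 CPM and was found in 16 of 19. Other genes differed between the captures, with Igfbp5, another such binding protein, at 255 and 1044 CPM, Car3 at 70.9 and 265 CPM and Gjb2 at 255 and 29.4 CPM. The 7 Lum-led cells held 0 UMIs of Ifitm1, Igfbp2 and Ccl11 and 1 UMI of Ptn.

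Matrix and mesenchymal genes also lay in the Dcn-led cells. Mfap5, a microfibril gene, had 71 UMIs in 15 of 19 cells, and the fibrillar collagen genes Col1a2 and Col3a1 had 55 UMIs in 14 and 32 in 13. Bgn, the proteoglycan biglycan, had 37 UMIs in 11 cells, Pdgfra 43 in 13 and Pdgfrb 14 in 9. None of these 6 genes except Mfap5, with 2 UMIs, was seen in the Lum-led cells, and none was seen in the Slc4a11-led cell. Pou3f4 had 53 UMIs in 14 Dcn-led cells, with 582 CPM in capture 2 and 176 CPM in capture 3, and Ebf1 stood at 1362 and 1426 CPM.

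Basal cell genes, which the rule held below the rule genes, were also present in the Dcn-led cells. Cldn11, the tight junction gene of basal cells, was found in 19 of 19 with 295 UMIs, or 2130 CPM, against 3744 CPM in the basal gate, which was made of barcodes with at least 4 UMIs of Cldn11, Tjp1 and Nr2f2, more than of each other marker sum and within the other limits of the rule. Nr2f2, a nuclear receptor gene, stood at 866 CPM in the Dcn-led cells and at 347 CPM in the basal gate. As both genes were used by the rule and the gate, these levels are a description only. Emcn, which is also an endothelial marker, had 53 UMIs in 13 of the 19, and Flt1, the endothelial VEGF receptor, 16 in 7. Pecam1, Cdh5 and Cldn5 together were held to at most 1 UMI by the rule, and the endothelial list summed to 520 CPM in the Dcn-led cells and to 0 UMIs in the Slc4a11-led and Lum-led cells. Rgs5 and the other markers of pericytes and smooth muscle summed to 7.22 CPM and those of macrophages to 0 UMIs.

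The 13 Dcn-led nuclei held several of these genes. Ptn stood at 3939 CPM, Ifitm1 at 1139 CPM, Igfbp2 at 523 CPM and Ccl11 at 308 CPM, with 10 UMIs of Ccl11 in 4 nuclei. Igfbp2 was not limited to them, since it was found in 8 of 19 Slc4a11-led nuclei (42.1%) and 6 of 13 Dcn-led nuclei (46.2%). In the Slc4a11-led nuclei Ifitm1 and Ccl11 had 0 UMIs, which allows up to 62.7 CPM by a limit of 3 counts. Tenm2 and Cntn4 encode adhesion proteins of neurons. Tenm2 stood at 2954 CPM and Cntn4 at 1570 CPM in the Dcn-led nuclei, against 43.0 and 16.1 CPM in basal nuclei, and the same genes had 11 and 15 UMIs in the 19 Dcn-led cells. Mgp, the gene of matrix Gla protein, had 58 UMIs in 3 Dcn-led nuclei. One Dcn-led nucleus, the deepest of the 41 and among the 3 with a high doublet score, had 6838 UMIs and held 2302 of the 2385 UMIs of erythroid genes in the Dcn-led nuclei.

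Lum-led cells were present in each capture, with 2, 3 and 2 in captures 1, 2 and 3. Epyc, the gene of epiphycan, a proteoglycan of the same family as decorin and lumican, had 312, 113 and 27 UMIs there, or 8487, 5536 and 1831 CPM, and was found in 7 of 7 cells. It was at 0 UMIs in the Dcn-led and Slc4a11-led cells. Epyc had a UMI in 1.51% of 1060 intermediate and 2.42% of 124 basal cells, at median depths of 6753 and 7432.5 UMIs, whereas the Lum-led cells had a median of 8103. After thinning to 1000 UMIs, Epyc was still found in 7 of 7 Lum-led cells, in 0.377% of intermediate and in 0.806% of basal cells. In the nuclei, 6 of 7 Lum-led barcodes held 194 UMIs of Epyc, or 8253 CPM.

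Dcn, Lum and Epyc lie in this order on the plus strand of chromosome 10 of mm10. In GENCODE vM21 Dcn lies at 97479609 to 97518143, Lum at 97565128 to 97572703 and Epyc at 97644068 to 97682454. Another gene, Kera, lies between Lum and Epyc on the same strand. Slc4a11 lies at 130684113 to 130697519 on the minus strand of chromosome 2 and Otor at 143078473 to 143081713 on its plus strand. All of these are protein-coding genes, and whether reads from introns were counted is not given in the sources used here.

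Other genes of the Lum-led cells varied between captures. Gpx2, a glutathione peroxidase, had 202 UMIs in 7 of 7 cells, with 272 CPM in capture 1, 539 in capture 2 and 12280 in capture 3, and 1 cell held 125 of them. Frzb, a secreted Wnt antagonist, had 59, 13 and 2 UMIs, and Fst, the activin-binding follistatin, 25, 40 and 0. Slc26a4, the anion exchanger pendrin, had 0, 7 and 32 UMIs, and Kcnj16, a potassium channel subunit, 15, 0 and 11. Slc26a4, Kcnj16 and Epyc belong to a list of 6 spindle and root cell markers, and this list summed to 7314 CPM in the Lum-led cells, 209 CPM in the Dcn-led cells and 0 UMIs in the Slc4a11-led cell. In nuclei it summed to 10800, 215 and 41.8 CPM in the same order. Of the 29 UMIs in the Dcn-led cells, 28 were Anxa1. Of the other genes of the list, Lgr5, a Wnt pathway receptor, had 9 UMIs in 5 Lum-led cells, whereas Anxa1 and P2rx2 had 0 UMIs there.

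The Lum-led nuclei repeated part of this. Kcnj16 was found in 7 of 7 at 1829 CPM and Frzb in 7 of 7 with 17 UMIs, whereas Fst had 0 UMIs and Slc26a4 had 1. Prss36, a serine protease gene, had 178 UMIs in 6 of 7 nuclei and 34 UMIs in 6 of 7 cells. Ceacam16, which encodes a protein of the tectorial membrane, had 44 UMIs in 6 nuclei and 24 UMIs in 3 cells. Gjb2 and Gjb6 were found in 7 of 7 nuclei and 7 of 7 cells, at 2722 and 3020 CPM in the nuclei. S100a1, a calcium-binding protein gene, was high in the Lum-led cells, with 26580, 7349 and 16210 CPM in captures 1, 2 and 3 against 667 and 485 CPM in the Dcn-led cells of captures 2 and 3.

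**Figure D2:**
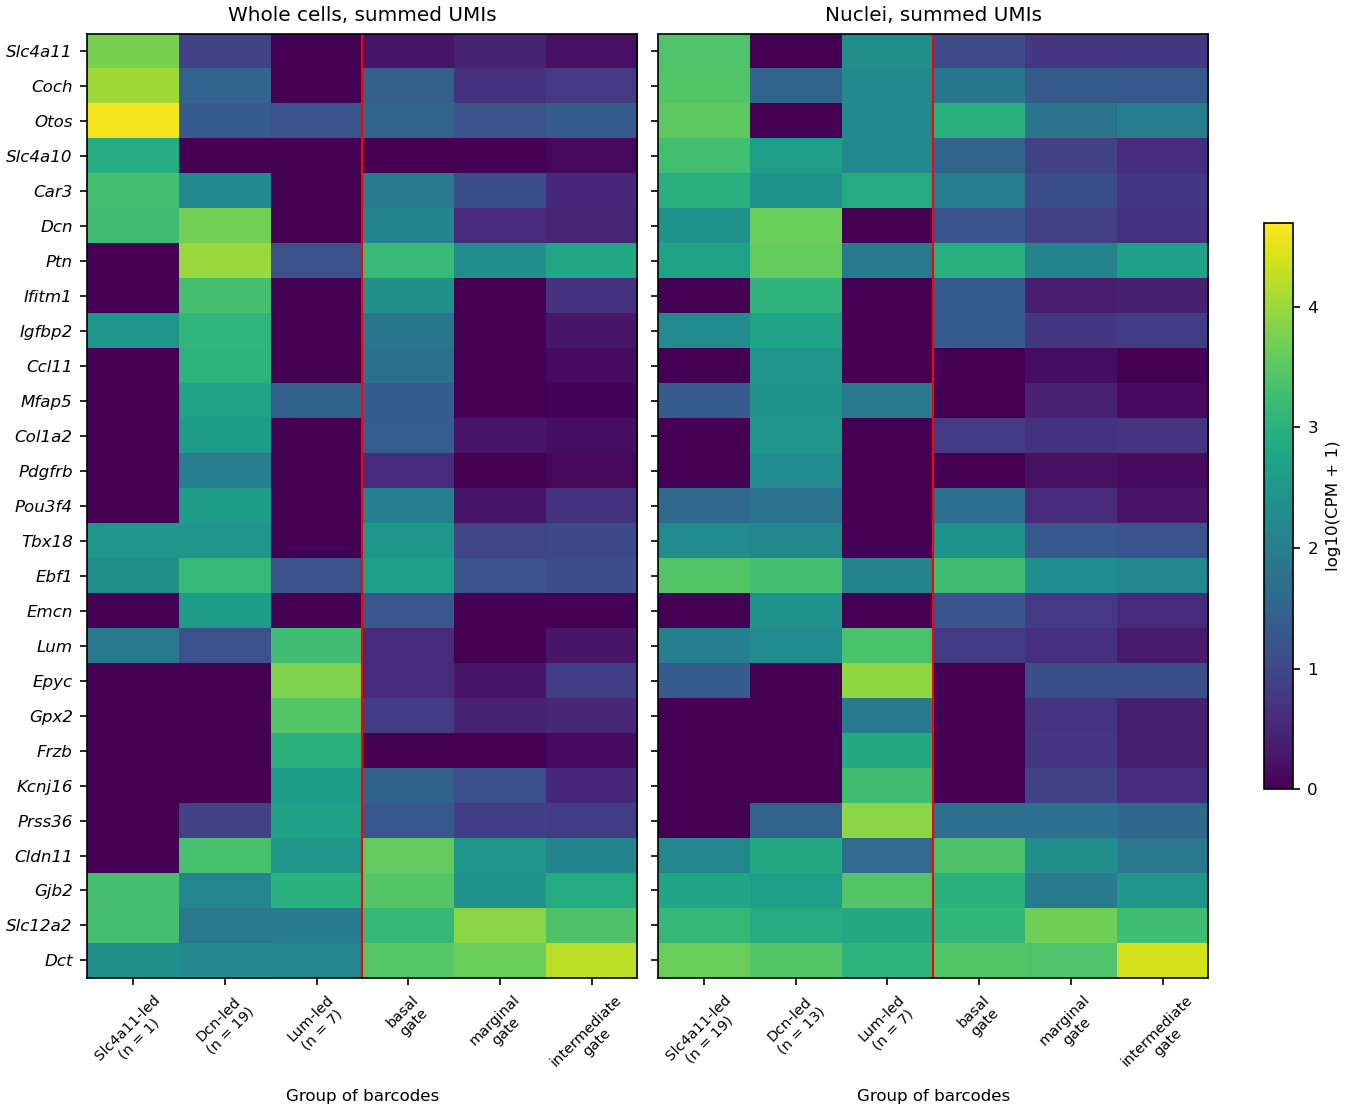
Summed levels, as log10(CPM + 1), of 27 genes (rows) in the Slc4a11-led, Dcn-led and Lum-led barcodes and in the basal, marginal and intermediate gates (columns), in whole cells (left) and nuclei (right). The 3 groups each carry a block of genes that the other 2 hold at low levels, and the Slc4a11-led column of whole cells is 1 cell.

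Quality measures also differed among the selected barcodes. The Slc4a11-led cell had 32.3% of its UMIs from mitochondrial transcripts, whereas the medians were 6.45% in Dcn-led and 10.0% in Lum-led cells. The selected cells as a whole had medians of 8.50%, 8.44% and 6.43% in captures 1, 2 and 3, against 13.1%, 18.0% and 18.2% in the basal gate. Over the barcodes of those captures with at least 200 genes the medians were 38.7%, 42.4% and 45.4%. Of these 378, 1329 and 1481 barcodes, 166, 643 and 643 met the Malat1 limit, which every selected cell had to meet. Malat1 made up a median of 26.8% of UMIs in the Slc4a11-led nuclei, with a range of 3.83 to 58.2%, but 6.95% in the Dcn-led and 7.83% in the Lum-led nuclei. After thinning to 500 UMIs, the median number of genes was 282 in Slc4a11-led, 353 in Dcn-led and 355 in Lum-led nuclei, beside 722, 1098 and 1784 genes without thinning. Of the 41 selected nuclei, 11 held at least 4 UMIs of the marginal or of the intermediate marker genes. A high doublet score was given to 2 Slc4a11-led nuclei and 1 Dcn-led nucleus. The part of these measures in the differences between the groups was not tested.

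**Figure D3:**
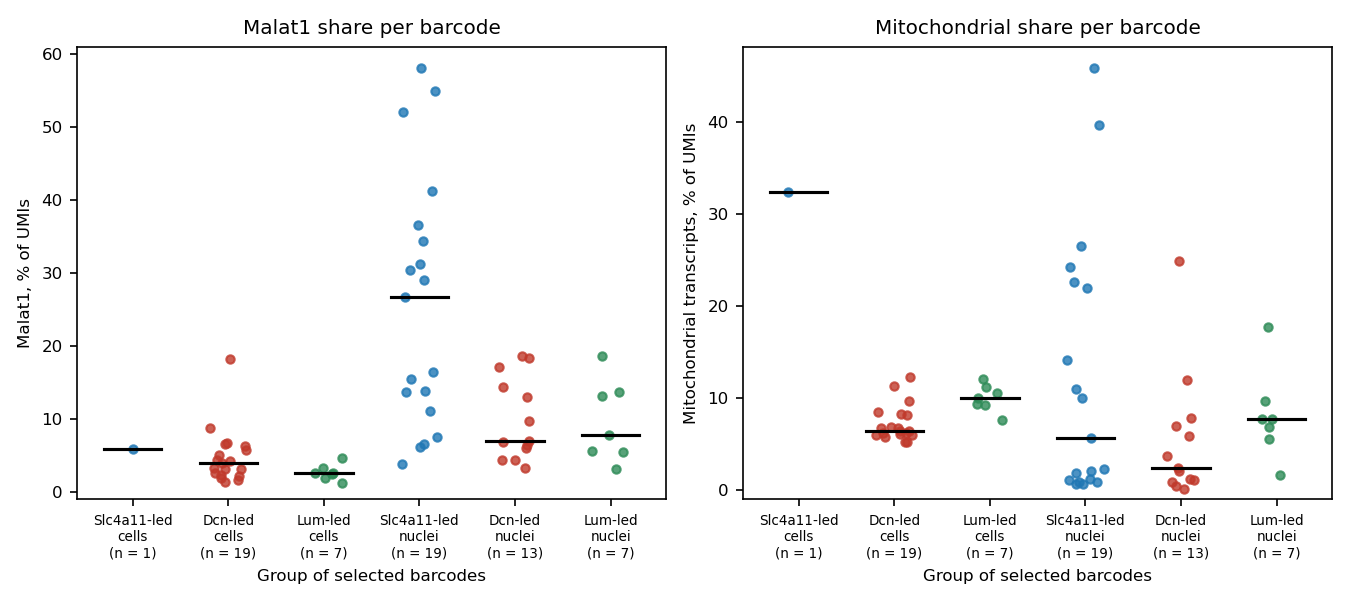
Share of UMIs from Malat1 (left) and from mitochondrial transcripts (right), in percent, in each selected cell or nucleus by leading gene, without ties and the Otor-led nucleus. Points are barcodes and lines are medians. Malat1 reaches 58.2% in the Slc4a11-led nuclei and stays at or below 18.7% in the Dcn-led and Lum-led nuclei, and the Slc4a11-led cell stands at 32.3% mitochondrial UMIs.

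The limits of the rule left out barcodes of like content. Without its limit on Malat1, 8 more cells and 12 more nuclei were selected. Those 8 cells, 1, 4 and 3 in captures 1, 2 and 3, had at most 0.111% Malat1 and a median of 33.4% mitochondrial UMIs, and they held 40 UMIs of Slc4a11, 161 of Coch and 1761 of Otos. The selected cells together held 78 UMIs of Slc4a11, 160 of Coch and 835 of Otos, so that these 8 cells held more Otos than all selected cells together. A further 13 cells had at least as many UMIs of the basal cell genes as of the rule genes. They held 183 UMIs of Dcn, 61 of Ccl11, 61 of Igfbp2 and 153 of Cldn11, and 8 of them were in the basal gate. Beside the limit of 4 UMIs, 3 cells had exactly 4 and 2 cells 3, and 8 nuclei had exactly 4 and 9 had 3.

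The share of a gene's UMIs that lay in selected barcodes differed widely between genes and captures. In capture 1 the selected barcodes held 0 of 3 UMIs of Slc4a11, 0 of 17 of Coch, 0 of 65 of Otos and 0 of 15 of Dcn. There they held 73 of 75 UMIs of Lum, 312 of 321 of Epyc, 59 of 60 of Frzb and 25 of 25 of Fst. They held 76.5% of the 102 Slc4a11 UMIs of capture 2, 0 of the 34 of capture 3 and 47.6% of the 271 of the nuclei. For Coch the shares were 55.2%, 0.758% and 21.9%, and for Otos 49.1%, 0.223% and 5.75%. For Dcn, in contrast, they were 71.7% and 68.4% in captures 2 and 3 and 46.8% in the nuclei. The shares of Lum were 66.7% and 50% in captures 2 and 3 and 36.2% in the nuclei. Those of Epyc were 50.9%, 43.55% and 28.7% in the same order, and those of Frzb 76.5%, 66.7% and 22.1%. For Fst they were 80.4% and 7.69% in captures 2 and 3, with 0 of 5 UMIs in the nuclei. Of the barcodes with at least 4 UMIs of Otos, 8 of 63 nuclei, 2 of 5 cells in capture 2 and 0 of 7 in capture 3 were selected. For Epyc these were 6 of 32 nuclei, 3 of 6 cells in capture 2 and 2 of 4 in capture 3.

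To see how the selected cells as a whole stood against their neighbours in the SV, UMIs were summed per capture and gate and fitted in edgeR. Capture 1, with 2 selected cells, gave no sum for them, so the selected cells entered as 2 sums, from captures 2 and 3. These sums were mostly Dcn-led, with 11 of 17 cells in capture 2 and 8 of 10 in capture 3. The members and gates were chosen by values in the same cells, so the 19 genes of the rule and the gates were not tested, and the p-values cover only the spread between sums of captures. Against the basal gate, 567 genes were higher and 646 lower in the selected cells at an adjusted p under 0.05 of 6196 genes tested, which is 9.15% and 10.4%. Under DESeq2 the split was 517 higher and 326 lower. Without capture 2 the counts were 254 and 302, and without capture 3 they were 313 and 419, where a single sum stood for the selected cells and was assumed to vary like the other gates. With the selected cells that held at least 4 UMIs of the marginal or intermediate genes left out, they were 327 and 508.

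Several growth factor and matrix genes were higher in the selected cells. Igfbp2 was at 893 and 858 CPM in the selected cells of captures 2 and 3 and at 67.6, 66.3 and 67.4 CPM in the basal gate of captures 1, 2 and 3. The groups did not overlap, and the log2 fold change was 3.63 ± 0.25 (SE; edgeR, adjusted p = 2.4e-17). Ccl11 was at 647 and 894 CPM against 33.8, 44.2 and 76.5 CPM, a log2 fold change of 3.58 ± 0.26 (edgeR, adjusted p = 1.6e-16). Mfap5 was at 349 and 387 CPM against 13.5, 20.4 and 30.6 CPM (3.78 ± 0.44 on the log2 scale; edgeR, adjusted p = 1.3e-09), and Col1a2 at 247 and 314 CPM against 6.76, 22.1 and 36.7 CPM (3.23 ± 0.47; edgeR, adjusted p = 2.9e-07). For these genes the selected cells lay above the basal gate in every capture compared.

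Of 15 fibroblast markers tested, 9 were higher and 2 lower than in the basal gate, where 9.15% of all genes were higher and 10.4% lower, with a median log2 fold change of 2.77 against -0.13 for all genes. Those higher included Vim, the intermediate filament vimentin, with a log2 fold change of 2.93, Pdgfrb with 4.43 and Fbn1, a microfibril gene, with 5.30. Of the 52 Vim UMIs of capture 2, 29 lay in 1 Lum-led cell and 21 in Dcn-led cells, whereas in capture 3 the Dcn-led cells held all 28. Those lower were Sparc (-1.48), a collagen-binding protein, and Fn1 (-4.52), fibronectin. Under DESeq2, 7 of the 11 calls were kept, and Fbn1, Igfbp5, Cxcl12 and Lox lost theirs (DESeq2, adjusted p = 0.416, 0.127, 0.0832 and 0.646). Of the 11 calls, 6 were kept without capture 2, 6 without capture 3 and 6 without the cells of mixed markers. Pdgfrb and Lox were among the genes not tested in these cases, and Vim, Igfbp4, Mfap5, Sparc and Fn1 were called in each. Among 17 genes of growth factor signalling, 9 were higher and 3 lower, beside the same 9.15% and 10.4% of all genes, with a median of 1.15, and the higher ones held Igfbp2, Igfbp4, Igfbp5 and Igfbp7, which bind insulin-like growth factors, and Bmp4. Of the 218 Igfbp5 UMIs of capture 2, 183 lay in 3 Lum-led cells, at 8965 CPM against 255 CPM in the 11 Dcn-led cells, whereas 71 of the 110 of capture 3 lay in Dcn-led cells. Without capture 2, 4 of these 12 calls were kept, and Bmp4 and Igfbp5 were lost (edgeR, adjusted p = 0.167 and 0.126). Without capture 3, 10 were kept. Of 4 small leucine-rich proteoglycans tested Bgn and Epyc were higher, and of 3 fibrillar collagens Col1a2 and Col3a1 were higher and Col11a2 lower. Bgn lost its call without capture 2 (edgeR, adjusted p = 0.0642), where Col3a1 was not tested. Of 11 other matrix genes and enzymes, 4 were higher and 3 lower, with a median of 0.30. The higher ones were Fbn1, Emilin2, Lox and Mmp2, of which the first 3 lost their call under DESeq2 (DESeq2, adjusted p = 0.277 for Emilin2) and Mmp2 lost it without the cells of mixed markers (edgeR, adjusted p = 0.356). Of 5 complement and chemokine genes, 3 were higher and none lower, namely Serping1, Cxcl12 and Ccl11, with a median of 2.12. Serping1 lost its call without capture 2 and without capture 3 (edgeR, adjusted p = 0.12 and 0.0821), and Ccl11 alone of the 3 kept it in both cases.

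Transcription factors of the mesenchyme were mixed. Of 16 tested, Pou3f4, Prrx1, Ebf1, Creb5 and Zeb2 were higher and Foxc1 and Sox9 lower, beside 9.15% and 10.4% of all genes, with a median of -0.36, or 0.26 when 2 genes at 0 in a group were set to 3 counts. Pou3f4 was at 349 and 145 CPM against 155, 100 and 94.9 CPM, so that capture 3 lay within the range of the basal gate. Its call (log2 fold change 1.30 ± 0.31; edgeR, adjusted p = 0.0014) was lost without capture 2, at an adjusted p of 0.715 in edgeR, as were those of Prrx1, Zeb2 and Foxc1. Without capture 3 the calls of Ebf1 (edgeR, adjusted p = 0.0812), Zeb2 and Foxc1 were lost, so that Creb5 and Sox9 kept theirs in both cases. Without the cells of mixed markers Pou3f4, Ebf1 and Zeb2 lost their calls (edgeR, adjusted p = 0.214, 0.1 and 0.843), and under DESeq2 Ebf1 and Foxc1 did (DESeq2, adjusted p = 0.103 and 0.152). Tbx18 was at 221 and 205 CPM against 237, 364 and 251 CPM and did not pass the test (edgeR, adjusted p = 0.167). Sox9 was at 162 and 60.4 CPM against 426, 658 and 441 CPM, a log2 fold change of -2.28 ± 0.31 (edgeR, adjusted p = 2.7e-07).

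Several genes of ion transport and gap junctions were lower. Gjb2 was at 536 and 254 CPM in the selected cells against 3083, 3230 and 1791 CPM in the basal gate, a log2 fold change of -2.78 ± 0.23 (edgeR, adjusted p = 9.9e-15). Gjb6 was at 340 and 193 CPM against 1873, 1829 and 1255 CPM (-2.72 ± 0.25; edgeR, adjusted p = 5.9e-13). With sums of at least 2 barcodes, which adds capture 1, the call of Gjb6 was lost (-1.76; edgeR, adjusted p = 0.0591). The levels differed among the leading groups, with Gjb2 at 2096 CPM in the Slc4a11-led cell and 144 CPM in the Dcn-led cells. In the Lum-led cells of captures 1, 2 and 3 Gjb2 had 44, 8 and 19 UMIs and Gjb6 52, 8 and 16. In captures 1 and 3 this was 1197 and 1289 CPM of Gjb2 and 1415 and 1085 CPM of Gjb6, so that Gjb6 in capture 1 lay within the range of the basal gate. Atp1b3, another subunit of sodium pumps, was at 323 and 169 CPM against 784, 923 and 582 CPM (-1.73 ± 0.26; edgeR, adjusted p = 6.8e-07), and Atp1b1 was at 859 and 568 CPM against 1622, 1212 and 998 CPM (-0.88 ± 0.23; edgeR, adjusted p = 0.0038). Of the 101 Atp1b1 UMIs in capture 2, 50 lay in the Slc4a11-led cell, and the call of Atp1b1 was lost without the selected cells of mixed markers. Slc12a2 was at 357 and 12.1 CPM against 1420, 1413 and 1182 CPM (-2.85 ± 0.68; edgeR, adjusted p = 0.0334), a call that was lost when capture 1 was left out (edgeR, adjusted p = 0.165) and when the cells of mixed markers were (edgeR, adjusted p = 0.0733).

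**Figure D4:**
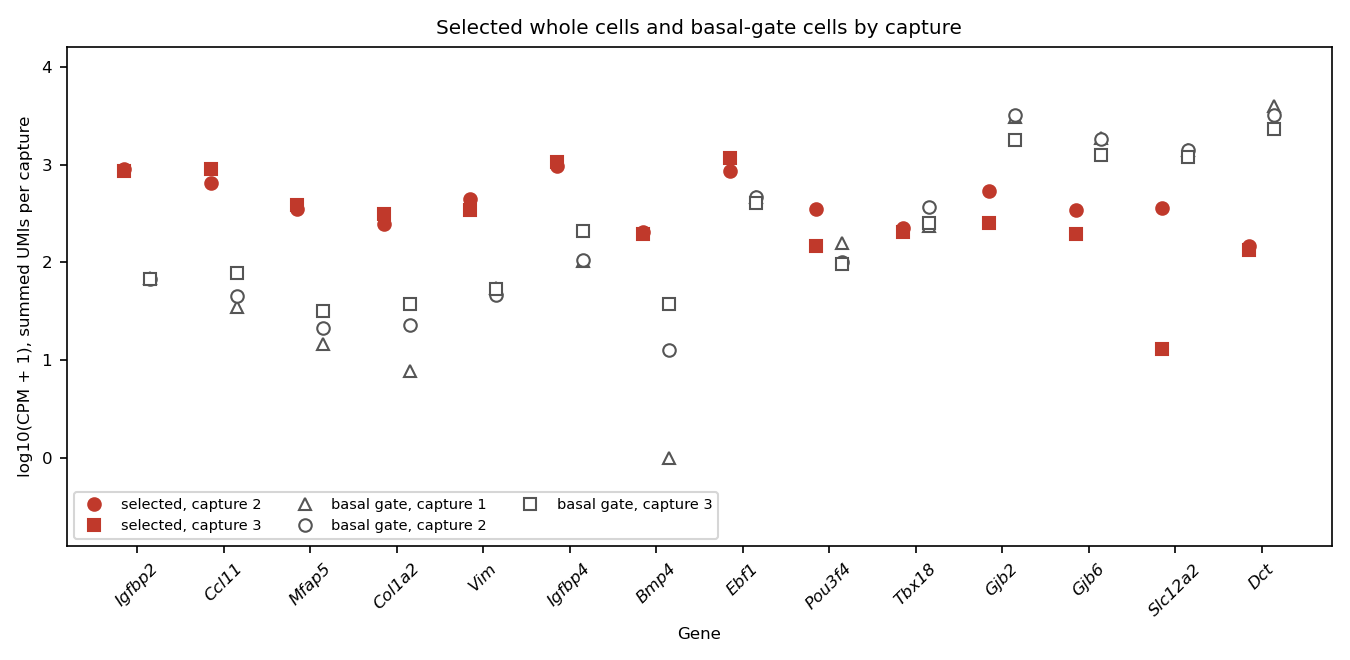
Levels of 14 genes in summed UMIs, as log10(CPM + 1), in the selected cells of captures 2 and 3 (filled) and in the basal gate of captures 1, 2 and 3 (open), with 1 symbol per capture. The selected cells lie above the basal gate for Igfbp2, Ccl11, Mfap5, Col1a2, Vim, Igfbp4, Bmp4 and Ebf1 and below it for Tbx18, Gjb2, Gjb6, Slc12a2 and Dct, though Tbx18 did not pass the test, and for Pou3f4 the groups overlap.

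The remaining lists were short, and their shares of called genes stand beside 9.15% higher and 10.4% lower over all genes, so that a single call among 7 to 9 genes is close to that background. Of 6 fibrocyte markers tested, Pou3f4 was higher and Gjb2 and Gjb6 lower than in the basal gate, with a median of 0.36. Otos was at 7078 and 36.3 CPM against 33.8, 28.9 and 30.6 CPM and did not pass the test (edgeR, adjusted p = 0.0531), and 831 of its 832 UMIs in capture 2 lay in 2 cells. Flt1 and Emcn, both endothelial, were higher (2 of 2 tested), of which Emcn lost its call under DESeq2 (DESeq2, adjusted p = 0.56) and Flt1 was not tested without capture 2 or capture 3, and Kcnj16 and Epyc were the spindle and root markers that were higher of 5 tested. Kcnj16 and Kcnk2 were higher of 3 potassium channels, Car12 of 7 genes of acid and water balance and Rspo1 of 4 Wnt modulators, of which Dkk3, Wnt5a and Rspo3 were lower. Kcnj16 had 0 UMIs in the 19 Dcn-led cells, and its 11 UMIs of capture 2 lay in 1 tie. Car12 was among the 12 genes that most separated the Lum-led cells from the other selected cells. Rspo1 was not tested without capture 2, without capture 3 or without the cells of mixed markers. Of 9 immediate-early genes Ier3 was higher and Jund and Dusp1 lower, calls that DESeq2 did not make (DESeq2, adjusted p = 0.0835, 0.114 and 0.0604). Of 8 calcium genes S100a1 was higher and Atp2a2 and Itpr1 lower. The levels of S100a1 given above for captures 2 and 3 were far higher in the Lum-led than in the Dcn-led cells. With at least 6 UMIs for every gate, S100a1 reversed to a log2 fold change of -0.17 (edgeR, adjusted p = 0.61). Without capture 2 the calls of Kcnj16, Kcnk2, Ier3, Dusp1, S100a1, Atp2a2, Itpr1, Dkk3 and Wnt5a were lost, with adjusted p of 0.0785 for Kcnj16 and 0.556 for S100a1 in edgeR, and without capture 3 those of Kcnj16 (edgeR, adjusted p = 0.229), Ier3, Jund and Atp2a2. No gene was called among the 4 erythroid markers and 3 secreted inner ear proteins tested, and Col15a1 was higher of 4 other collagens, a call that was lost without capture 3 (edgeR, adjusted p = 0.104) and not tested without capture 2. Dct, the melanocyte gene of intermediate cells, was at 145 and 133 CPM in the selected cells and at 3989, 3223 and 2305 CPM in the basal gate (-4.52 ± 0.31; edgeR, adjusted p = 2.4e-17).

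By the rule for named genes, those highest against the basal gate were A930011G23Rik, Zmynd12, Epyc, Gpx2, Fgf9, Hs3st1, Slc7a11, Tdrd12, Crabp2 and Nat8l. Several of these genes had small counts, and under DESeq2 the calls of Zmynd12, Fgf9, Slc7a11 and Tdrd12 were lost (DESeq2, adjusted p = 0.404, 0.0757, 0.086 and 0.0825). That of Zmynd12 was also lost without the replicate block (edgeR, adjusted p = 0.075). A930011G23Rik had 8 UMIs in each of captures 2 and 3 against 0 in the basal gate, which puts it at least 28.3-fold higher by a limit of 3 counts over that gate, and it was found in 5 cells. Epyc had 113 and 27 UMIs against 1, 0 and 2, and these came from the Lum-led cells alone. The Lum-led cells numbered 3 in capture 2 and 2 in capture 3. Gpx2 and Zmynd12 were, like Epyc, among the 12 genes that most separated the Lum-led cells from the other selected cells. Nat8l was among the 12 such genes of the Lum-led nuclei. Hs3st1, a heparan sulfate sulfotransferase gene, was found in 12 cells, with 26 and 15 UMIs against 0, 1 and 1. Crabp2, which binds retinoic acid, was found in 11 cells. The lowest were Fat2, 5730559C18Rik, Ppp2r2c, Plin4, Wfdc18, Pkp1, Plekha7, Endou, Uchl5 and Cytl1, of which Endou and Cytl1 lost their call without capture 2 (edgeR, adjusted p = 0.0674 and 0.0647). Fat2, a large cadherin gene, had 0 UMIs in the selected cells of captures 2 and 3 and 429 in the basal gate, at least 26.9-fold lower by a limit of 3 counts over the selected cells, and the 2 cells of capture 1 held 3 UMIs. Pkp1, a plakophilin of desmosomes, had 0 UMIs in all selected cells and 97 in the basal gate, at least 6.09-fold lower. Wfdc18 had 0 and 4 UMIs against 1038, 2017 and 2669, a call that was lost without capture 1 (edgeR, adjusted p = 0.107) and without capture 3 (edgeR, adjusted p = 0.472).

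Against the mean of the marginal and intermediate gates, 941 genes were higher and 965 lower in the selected cells, which is 15.2% and 15.6% of those tested. DESeq2 gave 972 and 536. Without capture 2 the counts were 607 and 599, without capture 3 they were 600 and 513, and without the selected cells holding other marker genes they were 621 and 752. The comparison shares its selected cells with the one against the basal gate and adds no independent evidence. The 10 named highest were Meg3, Ccl11, Igfbp2, Ifitm1, Aard, Slc1a3, Mfap5, Emcn, Emilin2 and Osr1. These genes were nearly absent from both gates. Ccl11 had 150 UMIs in the selected cells of captures 2 and 3 and 3 in the 99 marginal and 1060 intermediate cells, and Emcn had 53 against 0, a call that was lost under DESeq2 (DESeq2, adjusted p = 0.0574). Slc1a3, a glutamate transporter gene, had 219 UMIs and was found in 24 of 29 selected cells. The 10 named lowest were Rgs4, Elovl7, Gm2115, Tiam1, Ceacam1, Mtmr10, Ppp2r2c, Sema7a, Ccbe1 and Fut9.

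Mesenchymal genes were also called in this comparison, in which 15.2% of all genes were higher and 15.6% lower, more than against the basal gate. Of 16 transcription factors 10 were higher, among them Tbx18 with a log2 fold change of 4.37 ± 0.41 (edgeR, adjusted p = 2.5e-12) and Foxc1 with 3.57 ± 0.46 (edgeR, adjusted p = 3.7e-09), and Tbx2, Meis1 and Meis2 were lower. Meis1 had 0 UMIs in the selected cells, and its call was lost under DESeq2 (DESeq2, adjusted p = 0.0596), without capture 2 or capture 3 (edgeR, adjusted p = 0.233 and 0.138) and without the cells of mixed markers (edgeR, adjusted p = 0.0815). The median of the 16 was 4.50, or 3.68 with genes at 0 set to 3 counts, beside -0.16 for all genes. Of 15 fibroblast markers 11 were higher and none lower, with a median of 5.37, or 4.73 with genes at 0 set to 3 counts. Of these 11 calls, 9 were kept under DESeq2, which lost Fbn1 and Lox, 8 without capture 2, 7 without capture 3 and 6 without the cells of mixed markers, and all those missing in the last 3 cases were genes not tested there. Foxc1 was therefore higher than in the marginal and intermediate gates and lower than in the basal gate (-1.09). Atp1b1, Atp1b2, Atp1b3 and Slc12a2 were lower, among them Atp1b1 at 859 and 568 CPM in the selected cells of captures 2 and 3 (-2.31 ± 0.22; edgeR, adjusted p = 3e-13).

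In the nuclei, with 1 library, no test could be made. Against basal nuclei, 405 of 2403 genes were at least 2-fold higher (16.9%) and 227 at least 2-fold lower (9.45%), and against the mean of marginal and intermediate nuclei 2317 of 13386 were higher (17.3%) and 4345 lower (32.5%). The genes with the highest ratio to any other gate, among those with at least 50 UMIs in the selected nuclei, were Epyc, Slc4a10, Prss36, Tenm2, Coch, Sgcd, Cntn4, Mgp, Trpm3 and Itih5. Each was carried by 1 or 2 of the leading groups, with the exception of Trpm3. Trpm3, a cation channel gene, had 332 UMIs in 28 of 41 nuclei (3042 CPM, 2723 to 3387), at 2068 CPM in Slc4a11-led, 4370 CPM in Dcn-led and 3488 CPM in Lum-led nuclei. It stood at 247 CPM in basal, 119 CPM in marginal and 121 CPM in intermediate nuclei. Itih5, a gene of the hyaluronan-binding inter-alpha-trypsin inhibitor family, had 36 UMIs in Dcn-led and 49 in Lum-led nuclei and 0 in Slc4a11-led nuclei.

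Of 8 fibrocyte markers, 8 were at least 2-fold higher in the selected nuclei than in the mean of marginal and intermediate nuclei, where 17.3% of all genes were. Against basal nuclei, 2 of 6 were higher and 1 lower, beside 16.9% and 9.45% of all genes. Coch stood at 1365 CPM (1155 to 1603) in the selected nuclei and 69.9 CPM (37.2 to 120) in basal nuclei, Car3 at 678 CPM (532 to 851) and 96.8 CPM (57.4 to 153), and Otos at 1722 CPM (1485 to 1987) and 946 CPM (812 to 1097). Otos therefore fell short of a 2-fold difference from basal nuclei. Dct stood at 2950 CPM in the selected and 2737 CPM in basal nuclei, unlike in whole cells. Marginal nuclei were at a like level. The list of 6 intermediate markers, in which Dct had the most UMIs, summed to 3765 CPM in selected, 3221 CPM in basal and 2914 CPM in marginal nuclei. In intermediate nuclei it summed to 28690 CPM.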

How the data were processed

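The authors prepared 10x Genomics libraries from 3 suspensions of SV cells and 1 of SV nuclei, aligned reads to mm10 and counted UMIs with Cell Ranger 2.0.0, and deposited raw counts per gene and barcode without normalization. The cell and nucleus tables list 27998 and 48816 genes, with 27873 in both. Whether reads from introns or by strand were counted is not given in the sources used here. Genes with close copies, such as those of haemoglobin and the Ifitm family, may share reads.

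Members, groups and gene lists were chosen with earlier results of these data known. No barcode of the members was shared between captures. Comparison gates required at least 4 UMIs of a marker sum (basal Cldn11, Tjp1 and Nr2f2; marginal Kcnq1, Kcne1, Lrp2 and Esrrb; intermediate Met, Kcnj13, Kcnj10 and Cd44) that exceeded each other sum, within the other limits of the rule. Counts were summed per capture and gate with at least 3 barcodes and fitted in edgeR 4.0.16 (R 4.3.3; TMM, filterByExpr, robust quasi-likelihood fit, Benjamini-Hochberg adjustment), with the capture as replicate block because the sums of a capture come from 1 suspension. The quasi-likelihood test gives no SE, so each SE is the absolute log2 fold change divided by the square root of the F statistic. It rests on a spread shared by the selected cells and the 3 gates, with 2 sums of selected cells. The script was tested on simulated data. All columns of the files were used, with 0 left aside. The study's methods describe the captures of cells as separate, each from a stated number of pooled mice, so p-values measure the spread between captures, not between animals. CPM are scaled to 1000000 summed UMIs, with exact 95% Poisson intervals (scipy 1.17.1). Named genes were those of the lists, the 10 with the largest fold change in each direction that passed the test, moved alike in each capture and at least 2-fold in the nuclei, and in the nuclei the 10 with the highest CPM ratio to any gate and at least 50 UMIs. Genes that separate the leading groups needed 20 UMIs and were ranked after 10 CPM was added. Doublets were scored with Scrublet (scanpy 1.11.5), the top 0.8% per 1000 barcodes counting as doublets, and were left out in an alternative only. Alternatives were DESeq2 1.42.0, other scaling, filters, limits and gates, and leaving out each capture. Some genes of the lists are not reported here.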

Additional observations from a re-analysis of the deposited data

Results flagged for a closer look

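Gjb6 moved in opposite directions in whole cells and nuclei when set against the marginal and intermediate gates. In whole cells it was at 340 and 193 CPM in the selected cells of captures 2 and 3, against 360 and 330 CPM in the marginal and 1147 and 866 CPM in the intermediate gate, with a log2 fold change of -1.24. With sums of at least 2 barcodes, which adds capture 1, this call was lost (-0.33; edgeR, adjusted p = 0.654). In the nuclei it was at 925 CPM in the selected nuclei, 97.9 CPM in marginal and 449 CPM in intermediate nuclei. Of its 101 UMIs there, 71 lay in the 7 Lum-led nuclei. The difference between the preparations was not tested, since the nuclei were 1 library.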

How the results depend on the processing

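Counts of called genes depended on the 2 sums of the selected cells. Leaving out each capture in turn gave 254 to 547 genes higher and 302 to 648 lower than in the basal gate, and 600 to 1002 higher and 513 to 1012 lower than in the marginal and intermediate gates. DESeq2 called 326 and 536 lower genes. With cells of mixed markers left out, 327 and 621 genes were higher. With only the selected and basal cells fitted, 279 were higher and 267 lower. The cause was not tested. Without the replicate block the counts were 543 and 640 against basal and 917 and 955 against the others. Without TMM scaling the median log2 fold change of all genes moved from -0.13 to 0.0032 and from -0.16 to 0.037, and 54.3% and 59.1% of calls were higher in place of 46.7% and 49.4%.

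The nuclei gave 115 genes higher and 59 lower than basal at a 4-fold limit, and 91 and 75 with at least 50 UMIs; against the others 835 were higher at 4-fold and 1532 with at least 50 UMIs. Requiring Slc4a11 or Otor left 5 cells and 22 nuclei, and at least 6 UMIs left 26 nuclei.

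Of 2174 values of 170 gene calls under these alternatives, 2041 kept their direction and call, 131 lost the call and 2 reversed. All 170 were kept with at least 5 barcodes per sum, a limit that changed no sum and so could move no call. All 170 were also kept with doublets left out, which removed no selected cell. The 2174 leave out genes not tested under an alternative, and without capture 2 only 148 of the 170 had a value. The reversed ones were S100a1 against basal (log2 fold change -0.17 with at least 6 UMIs for every gate), and Ucma against the others, which ranged from -2.02 to 8.31 when 1 capture was left out, with the lowest value without capture 3. DESeq2 lost 27 calls, among them Emcn, Igfbp5, Ebf1, Foxc1, Zmynd12, Fgf9, Slc7a11 and Tdrd12 against basal. The next alternatives were chosen after seeing the data. With sums of at least 2 barcodes, which adds capture 1, 422 genes were higher and 603 lower than basal. Gjb6, Igfbp4, Igfbp5, Ebf1, Pou3f4, Zeb2, Ier3 and S100a1 then lost their call against basal. With the 8 basal-gate cells of 4 or more rule UMIs left out, 608 were higher and 642 lower.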
